A study of Mus musculus with 9 samples.

Results

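Caveolae are small flask-shaped pits of the plasma membrane. The genes of their coat were followed here across 9 mouse arrays. The 8 genes are the caveolins Cav1, Cav2 and Cav3, the cavins Cavin1, Cavin2 and Cavin3, the neck ATPase Ehd2 and the membrane-bending protein Pacsin2. They were taken by gene symbol, as those probe sets (groups of array probes read as 1 value) whose annotation gives exactly 1 symbol and that symbol 1 of the 8. All 8 were measured, each by 1 probe set, out of 19938 genes in all.

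RNA came from 3 groups of cultured mouse cells with 3 arrays each. The iPS cells are somatic cells returned to pluripotency, which the labels call inducible pluripotent stem cells derived from embryonic fibroblasts. R1 is a line of mouse embryonic stem cells. MEF are embryonic fibroblasts grown in vitro to a passage below 3, the cells that gave rise to the iPS cells. The labels give no strain, sex, culture medium or feeder layer, and do not say which factors made the iPS cells or whether the 3 iPS arrays hold 1 clone. The design text speaks of biological repeats without saying what was repeated, and p-values cover only the variation among these cultures, which may be technical. Whole-transcript Affymetrix arrays were used, and a signal is the deposited linear intensity of a probe set. A difference is one of log2(signal + 16), which understates changes of dim genes. A gene was called, and is said to have risen or fallen, at an adjusted p under 0.05 with a difference of at least 1. Differences carry the standard error (SE) of a limma fit over all arrays.

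A caveola forms when caveolins, hairpin proteins that sit in the inner leaflet and bind cholesterol, gather at the membrane and cavins assemble on them from the cytosol. Cav1 and Cavin1 are both required for caveolae outside striated muscle. Ehd2 surrounds the neck and holds the pit at the surface. Pacsin2 has an F-BAR domain, which senses and bends membranes. Fibroblasts, endothelial cells, adipocytes and muscle cells are rich in caveolae, which flatten under tension and so buffer stretch of the membrane.

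The group labels were borne out by defining markers. Col1a1, a chain of type I collagen, averaged a signal of 1229 in iPS, 785 in R1 and 10144 in MEF arrays. Pou5f1, the pluripotency factor Oct4, averaged 4137 in iPS, 4706 in R1 and 53.0 in MEF arrays. Thy1, a surface protein of fibroblasts, averaged 255 in iPS, 233 in R1 and 1975 in MEF arrays, and Nanog, also a pluripotency factor, 3530 in iPS, 3205 in R1 and 46.7 in MEF arrays. The median signal per array was 78.2 at the lowest and 83.3 at the highest.

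The promoters of 5 members that fell in both pluripotent groups are shown first, as RefSeq gives them (build GRCm38.p6), to set their letters side by side. Each holds 250 bases before and 50 after the annotated start, 5′ to 3′ on the gene's strand. Capitals mark matches, on either strand, to the TATA box (TATAAA), the AP-1 site (TGANTCA), the TEAD site (GGAATG), the GC box of Sp1 (GGGCGG) and the CCAAT box (CCAAT). The CArG box of serum response factor was also searched.
Cav1, chr6:17306085-17306384 on the plus strand: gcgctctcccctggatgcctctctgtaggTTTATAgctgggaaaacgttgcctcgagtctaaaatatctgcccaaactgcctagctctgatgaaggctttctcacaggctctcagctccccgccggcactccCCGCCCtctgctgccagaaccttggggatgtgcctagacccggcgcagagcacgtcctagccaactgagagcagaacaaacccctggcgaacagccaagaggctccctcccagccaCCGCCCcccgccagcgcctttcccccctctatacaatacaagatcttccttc
Cav2, chr6:17280935-17281234 on the plus strand: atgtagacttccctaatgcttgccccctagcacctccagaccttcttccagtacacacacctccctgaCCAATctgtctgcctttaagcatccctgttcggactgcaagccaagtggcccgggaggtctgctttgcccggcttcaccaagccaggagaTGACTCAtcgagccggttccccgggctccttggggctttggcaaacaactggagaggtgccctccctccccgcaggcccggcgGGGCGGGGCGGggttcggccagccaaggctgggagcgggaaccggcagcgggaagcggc
Cavin1, chr11:100970568-100970867 on the minus strand: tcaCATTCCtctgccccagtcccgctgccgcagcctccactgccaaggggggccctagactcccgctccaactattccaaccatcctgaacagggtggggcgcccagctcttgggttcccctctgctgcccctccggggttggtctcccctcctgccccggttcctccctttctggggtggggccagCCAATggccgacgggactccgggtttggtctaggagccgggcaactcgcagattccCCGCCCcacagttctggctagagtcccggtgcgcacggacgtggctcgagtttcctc
Cavin2, chr1:51288876-51289175 on the plus strand: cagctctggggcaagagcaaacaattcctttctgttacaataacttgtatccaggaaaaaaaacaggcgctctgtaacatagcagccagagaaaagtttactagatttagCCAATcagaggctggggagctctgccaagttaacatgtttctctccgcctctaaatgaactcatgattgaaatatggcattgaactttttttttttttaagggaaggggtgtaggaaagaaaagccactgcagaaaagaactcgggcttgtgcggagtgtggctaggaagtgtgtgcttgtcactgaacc
Ehd2, chr7:15967486-15967785 on the minus strand: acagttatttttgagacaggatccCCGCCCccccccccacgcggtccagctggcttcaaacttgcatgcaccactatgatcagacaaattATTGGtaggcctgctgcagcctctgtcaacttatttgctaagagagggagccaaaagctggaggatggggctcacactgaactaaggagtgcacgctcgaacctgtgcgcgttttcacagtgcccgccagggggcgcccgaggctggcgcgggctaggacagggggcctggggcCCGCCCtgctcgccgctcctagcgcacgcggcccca
The AP-1 site of Cav2 matches the pattern TGANTCA on both strands. Its GC boxes are 2 matches that share a base. Over the first listed starts of the 7 members with a promoter in the table, the GC box was found in 5 (Cav1, Cav2, Cavin1, Ehd2 and Pacsin2), against 35.7% of 32851 promoters of that length. The CCAAT box was found in 5 (Cav2, Cavin1, Cavin2, Ehd2 and Pacsin2), against 37.4% of promoters. The letters of the TATA box occurred in Cav1 alone of the 7 (13.6% of promoters), the AP-1 site in Cav2 alone (7.81%), and the TEAD site in Cav3 and Cavin1 (14.7%). The TATA match of Cav1 begins at base -221 from the start and reads on the strand opposite to the gene. The CArG box occurred in 0 of the 7 and in 1.63% of promoters. The shares over promoters count every listed start of a gene, unlike the counts of members. At later listed starts the GC box was absent for Cav1 and Pacsin2 and present for Cavin1. The second start of Pacsin2 held an AP-1 site. These windows did not share 1 composition. The Cavin2 promoter was 43.3% G and C with 4 CpG pairs, whereas the Cavin1 promoter was 66.7% G and C with 17, and the median over all promoters was 52.7% with 7. A match is a string of letters and shows no binding.

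Set against MEF, 6 of the 8 genes fell in iPS cells and the same 6 fell in R1 cells: Cav1, Cav2, Cavin1, Cavin2, Cavin3 and Ehd2. None rose. Pacsin2 and Cav3 were lower by less than the minimum difference. Of all genes tested, 7.58% were called lower and 12.7% either way in iPS cells, and 7.94% lower and 13.5% either way in R1 cells. On the deposited signals, all 8 genes had every pluripotent array below every MEF array, where this was so for 24.9% of all genes in iPS and 25.3% in R1 cells. The median difference of the 8 genes was -2.77 in iPS cells and -2.87 in R1 cells, against 0.02 over all genes in each. The MEF arrays are the same in both comparisons, so these are not independent of each other. In such cultures, fewer cells that hold an RNA and less of it per cell cannot be told apart.

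**Figure D1:**
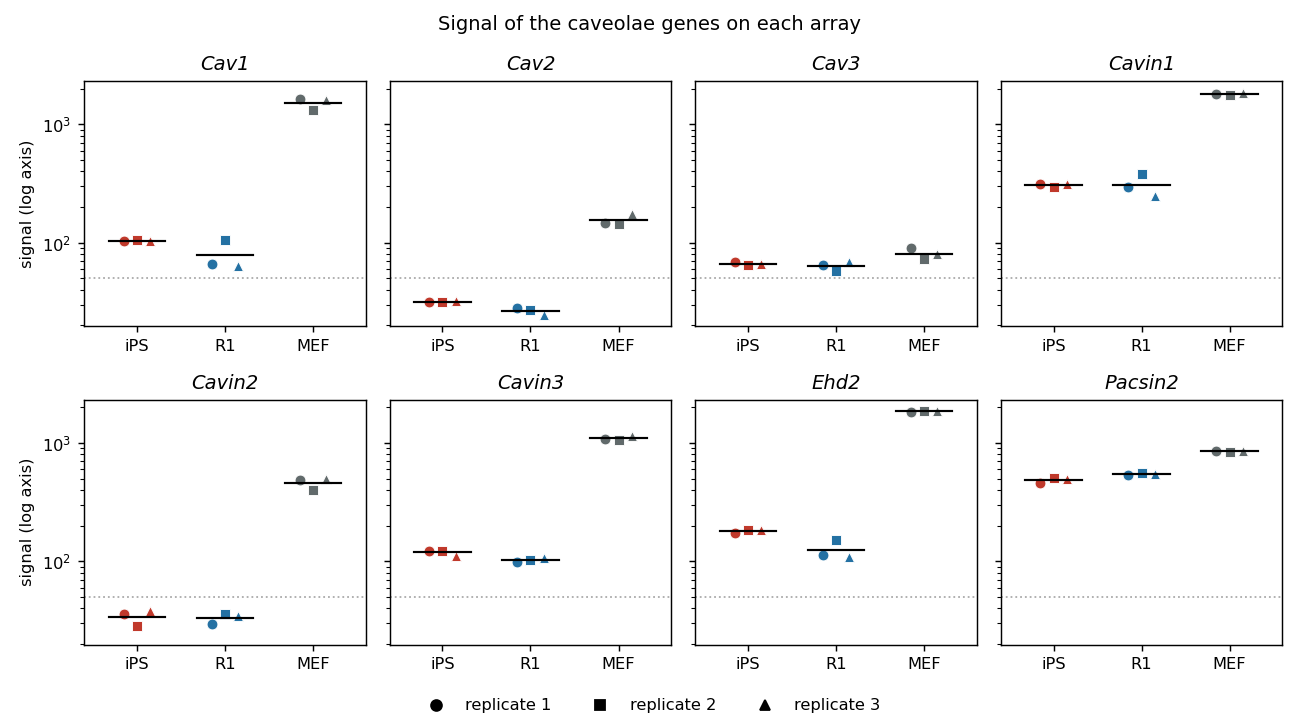
Signal of each of the 8 genes on each array (vertical log axis, intensity units; points are arrays, with shapes for replicates 1 to 3, and black lines are group means). In 6 panels the iPS and R1 arrays lie far below the MEF arrays, as for Ehd2 at 174 to 184 in iPS and 108 to 152 in R1 against 1833 to 1872 in MEF. The dotted line marks a signal of 50, below which a gene was treated as dim.

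Cav1 (probe set 10536499) encodes the main caveolin of cells other than striated muscle. Its signal was 103, 105 and 103 in iPS arrays. In R1 arrays it was 66.7, 105 and 64.0, and in MEF arrays 1629, 1314 and 1596. The pluripotent arrays thus stayed well below every MEF array, while R1 replicate 2 stood with the iPS arrays and apart from the other R1 arrays. The mean iPS signal was 6.87% and the mean R1 signal 5.20% of the MEF mean. The R1 signals of 66.7 and 64.0 lay below the lowest array median of 78.2. Without detection calls, background may be part of them. The difference from MEF was -3.67 ± 0.15 in iPS cells (adjusted p = 3.62e-08) and -4.03 ± 0.15 in R1 cells (adjusted p = 1.67e-08).

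Cav2 (probe set 10536494) encodes a caveolin that assembles with caveolin-1 and depends on it to leave the Golgi. Signals were 31.8, 31.3 and 32.4 in iPS arrays. They were 28.2, 27.1 and 24.6 in R1 arrays, and 148, 144 and 174 in MEF arrays. All 6 pluripotent arrays were under the limit of 50, where signal and background could not be told apart because no detection calls were used. The difference was -1.84 ± 0.07 in iPS cells (adjusted p = 2.02e-08) and -2.002 ± 0.067 in R1 cells (adjusted p = 9.97e-09). With a pseudocount of 1 in place of 16 these became -2.24 in iPS and -2.50 in R1 cells.

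Cav3 (probe set 10540533) is the caveolin of skeletal and cardiac muscle. Its signal was 68.1, 65.3 and 65.8 in iPS arrays, 65.3, 58.1 and 68.1 in R1 arrays, and 90.5, 72.5 and 79.9 in MEF arrays. Each MEF array was above every other array, by little. These signals lay near the array medians of 78.2 to 83.3, and without detection calls background may be part of them. The differences of -0.23 ± 0.07 (adjusted p = 0.0252) in iPS cells and -0.28 ± 0.07 (adjusted p = 0.00951) in R1 cells were far from the minimum of 1. Most skeletal muscle markers were higher in the MEF arrays than in the other arrays. Of 12 skeletal muscle markers 9 fell in iPS and 10 in R1 cells, where 7.58% and 7.94% of all genes were called lower. The summed signal of the 12 was 1035 to 1334 in iPS, 1047 to 1174 in R1 and 7212 to 8850 in MEF arrays. Much of the MEF sum was Actc1, which averaged 290 in iPS, 223 in R1 and 4881 in MEF arrays. Myogenin (Myog), a transcription factor of muscle differentiation, averaged 51.5 in iPS, 53.7 in R1 and 256 in MEF arrays. Myod1, which sets the muscle lineage, averaged 83.5 in iPS, 88.9 in R1 and 272 in MEF arrays, and the embryonic myosin gene Myh3 held 48.5 to 51.3 in iPS, 53.1 to 62.7 in R1 and 405 to 739 in MEF arrays. Myf5 (19.7 in iPS, 17.9 in R1 and 21.8 in MEF arrays) and Ckm (87.6, 77.2 and 79.9) were not called. The part of muscle cells in the Cav3 signal was not tested.

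Cavin1 (probe set 10391332) encodes the cavin without which the coat does not assemble. Signals were 315, 296 and 313 in iPS arrays. R1 arrays held 296, 383 and 251, and MEF arrays 1820, 1783 and 1846. The MEF arrays were nearly equal, while the R1 arrays differed among themselves and enclosed the iPS range. The iPS mean was 17.0% and the R1 mean 17.1% of the MEF mean. The difference was -2.50 ± 0.12 in iPS cells (adjusted p = 9.90e-08) and -2.51 ± 0.12 in R1 cells (adjusted p = 8.21e-08).

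Cavin2 (probe set 10346164), first known as a serum deprivation response gene, encodes a cavin that binds phosphatidylserine and promotes membrane curvature. Its signal was 36.0, 28.4 and 37.8 in iPS arrays and 29.2, 35.8 and 34.8 in R1 arrays, all in the dim range. MEF arrays held 488, 402 and 495. The iPS and R1 arrays overlapped. The difference was -3.25 ± 0.10 in iPS cells (adjusted p = 7.96e-09) and -3.27 ± 0.10 in R1 cells (adjusted p = 6.34e-09). With a pseudocount of 1 it was -3.72 in iPS and -3.75 in R1 cells.

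Cavin3 (probe set 10566454) encodes a cavin that binds protein kinase C delta and joins the coat through cavin-1. Signals were 123, 123 and 111 in iPS arrays, 99.0, 102 and 107 in R1 arrays, and 1082, 1053 and 1144 in MEF arrays. Its arrays varied little within each group, and the lowest iPS array was just above the highest R1 array. The difference was -3.04 ± 0.05 in iPS cells (adjusted p = 5.04e-10) and -3.23 ± 0.05 in R1 cells (adjusted p = 3.51e-10).

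Ehd2 (probe set 10560190), the ATPase of the caveolar neck, had signals of 174, 184 and 184 in iPS arrays. R1 arrays held 114, 152 and 108, and MEF arrays 1833, 1859 and 1872. Again R1 replicate 2 was the R1 array nearest to the iPS arrays, but here it remained below all of them. The difference was -3.25 ± 0.10 in iPS cells (adjusted p = 7.99e-09) and -3.75 ± 0.10 in R1 cells (adjusted p = 3.12e-09).

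Pacsin2 (probe set 10430997), whose F-BAR protein also serves at endocytic and other curved membranes, was lower by less than the minimum difference. Its signal was 455, 501 and 498 in iPS arrays, 534, 553 and 549 in R1 arrays, and 861, 838 and 855 in MEF arrays. The 3 groups did not overlap, with iPS lowest and MEF highest. The iPS mean was 57.0% and the R1 mean 64.0% of the MEF mean. Differences of -0.79 ± 0.05 in iPS cells (adjusted p = 4.98e-07) and -0.63 ± 0.05 in R1 cells (adjusted p = 2.27e-06) passed the p threshold but missed the minimum size. By adjusted p alone, 8 of 8 genes were lower in each comparison, against 23.2% of all genes in iPS and 23.0% in R1 cells. For Cav3 in iPS cells this held in 17 of 21 alternatives that test against no difference. Its adjusted p was highest, at 0.0849, without MEF replicate 1. In R1 cells it held in 21 of 21.

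**Figure D2:**
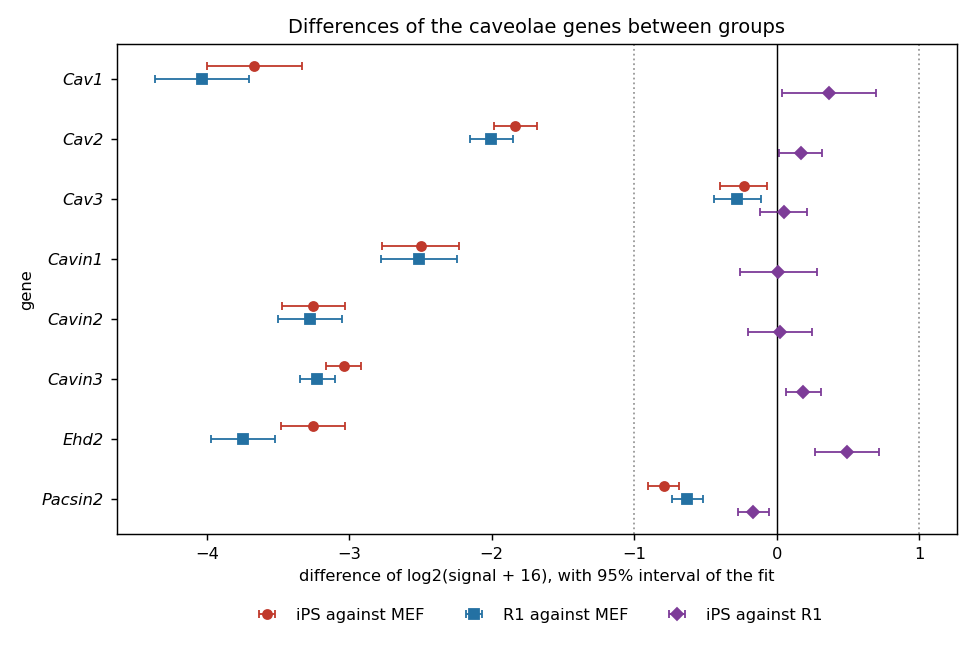
Difference of log2(signal + 16) for each gene (rows) in the 3 comparisons, with the 95% interval of the limma fit. Dotted lines mark the minimum difference of 1 in each direction. The iPS against R1 points lie between -0.16 and 0.49, all within the dotted lines, whereas 6 genes against MEF lie between -4.03 and -1.84.

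Between iPS and R1 cells, 0 of the 8 genes were called by limma, against 0.461% of all genes. At an unadjusted p under 0.05 there were 5, where 20.6% of all genes passed. By adjusted p alone there was 1, Ehd2, where 8.52% of all genes passed. Ehd2 was higher in iPS than in R1 cells by 0.49 ± 0.10 (adjusted p = 0.0157), with all 3 iPS arrays above all 3 R1 arrays. That p missed the threshold without iPS replicate 2 (0.0546), iPS replicate 3 (0.0505) or R1 replicate 1 (0.0678), and when the fit held the iPS and R1 arrays alone (0.0567). Over the alternatives that test against no difference it ranged from 0.000310 to 0.0678.

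For the other members the size of a difference that the data allow is given by its 95% interval. Cav1 differed by 0.37 (interval 0.04 to 0.70, adjusted p = 0.188), with overlapping arrays. Cavin3 differed by 0.19 (0.06 to 0.31, adjusted p = 0.0705), with the iPS arrays above the R1 arrays. Cav2 had 0.17 (0.02 to 0.32, adjusted p = 0.189), but its iPS and R1 arrays were all in the range not told from background, so no order is read from it. Pacsin2 differed the other way, by -0.16 (-0.27 to -0.06, adjusted p = 0.0723), with the iPS arrays below.

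The intervals of Cavin1 (-0.26 to 0.28), Cavin2 (-0.20 to 0.25) and Cav3 (-0.12 to 0.21) included 0, and their arrays overlapped. In all, the arrays of iPS and R1 did not overlap for 4 of the 8 genes, and this was so for 21.9% of all genes. All 8 genes were thus highest in MEF. Below MEF, only Ehd2 had an iPS and an R1 level that differed by adjusted p, with R1 the lower. For Cavin3 and Pacsin2 the arrays were apart but the test missed its threshold, Cav2 lay in the dim range in both groups, and the arrays of the other 4 overlapped.

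R1 replicate 2 stood above the other R1 arrays for several members. For Cav1, Cavin1 and Ehd2 it was at 6.97%, 21.1% and 8.21% of the MEF mean, where the other R1 arrays held 4.41% and 4.23%, 16.3% and 13.8%, and 6.14% and 5.80%. For Cavin2 and Pacsin2 it was also the highest R1 array, by a narrow margin, for Cav2 and Cavin3 it was the middle one, and for Cav3 the lowest. Without that array, Cav1 was higher in iPS cells by 0.56 (adjusted p = 0.00795) and Ehd2 by 0.63 (adjusted p = 0.000310). Cavin1 then had 0.17 in place of 0.01 (adjusted p = 0.246). All 3 stayed below the minimum size. The array was singled out by these same signals, so leaving it out had to widen these differences. The p-values without it are therefore no support for a difference. Over the alternatives that test against no difference, the adjusted p of Cav1 ran from 0.00795 to 0.469. It was under 0.05 in 1 of 21.

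Markers of fibroblasts and of contractile cells moved with these genes. The summed signal of 13 fibroblast markers was 4656, 3729 and 3884 in iPS arrays, 2907, 3792 and 2866 in R1 arrays, and 31990, 37339 and 34877 in MEF arrays. Of these markers 11 fell and 0 rose in each comparison with MEF. Over all genes, 7.58% were called lower in iPS and 7.94% in R1 cells. Dcn, the decorin gene, ran the other way without being called, with 505 in iPS, 505 in R1 and 372 in MEF arrays on average (0.40 in iPS, adjusted p = 0.0353, and 0.42 in R1 cells, adjusted p = 0.0272). Col1a1 was 1351, 1144 and 1193 in iPS arrays and 626, 1024 and 704 in R1 arrays, with the highest R1 signal in replicate 2. That replicate was the highest R1 array for 7 of the 13 markers, the lowest for 1 (S100a4) and in between or tied for 5. It was also the highest for 6 of 12 pluripotency markers and the lowest for 4. Among 12 endothelial markers it was the highest for 5 and the lowest for 5. The share over all genes was not computed, so these counts are not read as a trait of fibroblast genes.

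Acta2, the smooth-muscle actin also found in myofibroblasts, was 1361, 1252 and 1160 in iPS, 370, 976 and 478 in R1, and 10369, 9810 and 10297 in MEF arrays. Of 10 smooth-muscle markers 7 fell in each comparison with MEF, where 7.58% of all genes were called lower in iPS and 7.94% in R1 cells. Acta2 (1.15 ± 0.28) and Tagln (1.17 ± 0.24), which encodes transgelin, rose in iPS against R1 cells, where 0.461% of all genes were called. Myh11, the smooth-muscle myosin gene, averaged 83.9 in iPS, 76.2 in R1 and 241 in MEF arrays. R1 replicate 2 was the highest R1 array for 6 of the 10 and the lowest for 2, whereas it was the lowest for 10 of the 12 skeletal muscle markers. The summed smooth-muscle signal was 2540 to 2948 in iPS arrays, 1391 to 2246 in R1 arrays, the highest being replicate 2, and 20299 to 20886 in MEF arrays. The lowest signal of any probe set on any array was 4.0, so no marker could be at 0. The part of fibroblasts or contractile cells in the iPS and R1 signals of the caveolae genes was not tested.

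**Figure D3:**
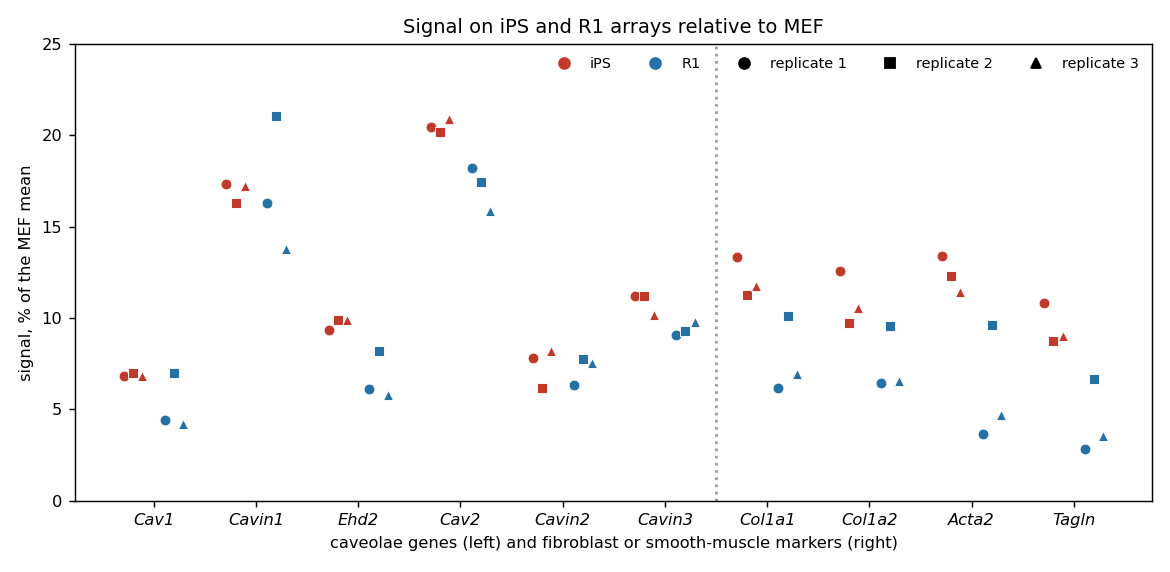
Signal of 6 caveolae genes and of Col1a1, Col1a2, Acta2 and Tagln on each iPS and R1 array, in percent of the MEF mean (points are arrays, with shapes for replicates). The square of R1 replicate 2 lies above both other R1 arrays for Cav1, Cavin1, Ehd2, the 4 markers and, by little, Cavin2. For Col1a1, for example, it is at 10.1% against 6.17% and 6.94%. The 4 markers were picked from their lists, which did not follow that replicate as a whole.

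Markers of endothelial cells and adipocytes, which are also rich in caveolae, were mostly not called. Against MEF, 12.7% of all genes were called either way in iPS and 13.5% in R1 cells. Of 12 endothelial markers, Flt1 (-1.89 ± 0.10 in iPS and -2.28 ± 0.10 in R1 cells) and Emcn (-1.04 ± 0.06 in iPS and -1.08 ± 0.06 in R1 cells) fell in iPS and R1 against MEF, and Pecam1, which pluripotent cells also carry, rose (1.81 ± 0.21 in iPS and 2.07 ± 0.21 in R1 cells). The endothelial cadherin Cdh5 averaged 37.3 in iPS, 42.3 in R1 and 41.6 in MEF arrays. The summed endothelial signal was 1045 to 1078 in iPS, 1034 to 1116 in R1 and 1388 to 1470 in MEF arrays. The higher MEF sum rests on Flt1, which averaged 197 in iPS, 146 in R1 and 774 in MEF arrays. The median difference of the 12 markers was 0.14 in iPS and 0.16 in R1 cells against MEF. Of 9 adipocyte markers 0 were called in any comparison, and the adiponectin gene Adipoq stayed between 13.6 and 14.0 on all arrays. Perilipin (Plin1) averaged 64.9 in iPS, 72.7 in R1 and 71.4 in MEF arrays. Flt1 and Emcn were named after their values were seen. Of 12 pluripotency markers 12 rose in each comparison with MEF, where 1013 of 19938 genes rose in iPS and 1108 in R1 cells. Zfp42 (Rex1), 1 of them, fell in iPS against R1 cells by 2.77 (adjusted p = 2.92e-06), with 506 in iPS, 3539 in R1 and 33.8 in MEF arrays on average.

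Genes of proteins that work with caveolae fell where they were called. Of 15 partners and regulators, 4 fell in iPS and 5 in R1 cells and 0 rose, with a median difference of -0.30 in iPS and -0.46 in R1 cells. Of all genes, 7.58% were called lower in iPS and 7.94% in R1 cells. By adjusted p alone, 9 partners were lower and 2 higher in iPS cells. At that threshold 23.2% of all genes were lower and 4945 of 19938 higher in iPS cells. In R1 cells 13 of the 15 passed it in either direction, beside 9750 of 19938 genes. Filamin A (Flna), which ties caveolae to actin, fell by 1.70 in iPS cells and by 1.92 in R1 cells. Its signal was 1915 ± 33 in iPS, 1641 ± 52 in R1 and 6239 ± 165 in MEF arrays (SD, n = 3 each). The BMP receptor Bmpr2 fell (-1.63 ± 0.10 in iPS and -1.56 ± 0.10 in R1 cells), as did the tyrosine kinases Abl1 (-1.33 ± 0.10 in iPS and -1.24 ± 0.10 in R1 cells) and Fyn (-1.18 ± 0.16 in iPS and -1.69 ± 0.16 in R1 cells). The insulin receptor gene Insr, named for its closeness to the limit, was called in R1 (-1.004 ± 0.098) and not in iPS cells (-0.99 ± 0.10).

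Relatives of the coat genes were not called. The muscle cavin Cavin4 had differences of 0.07 in iPS and 0.19 in R1 cells. Ehd1 (-0.57 in iPS and -0.65 in R1 cells), Ehd3 (-0.51 in iPS and -0.46 in R1 cells) and Ehd4 (-0.25 in iPS and -0.10 in R1 cells), paralogs of Ehd2 that act in endocytic recycling, all had smaller differences than Ehd2. Pacsin1 (0.46 in iPS and 0.80 in R1 cells), the neuronal paralog of Pacsin2, was the highest of the list in both comparisons, and dynamin 2 (Dnm2) differed by -0.23 in iPS and -0.26 in R1 cells. These genes are named outside the rule for named genes, as relatives of members or, for dynamin, as a protein that cuts membrane necks.

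Among other membrane machineries the changes ran both ways or were few. Over all genes, 7.58% were called lower and 12.7% either way in iPS cells, and 7.94% lower and 13.5% either way in R1 cells. Of 6 flotillin and stomatin genes, Stom fell in both (-1.34 ± 0.14 in iPS and -1.23 ± 0.14 in R1 cells) and Flot1 passed the minimum difference in R1 cells (-1.002 ± 0.091) and just missed it in iPS cells (-0.90 ± 0.09). The iPS and R1 values of Flot1 differed by 0.10 (adjusted p = 0.654). The count in R1 cells was 1 of 6 without R1 replicate 1, R1 replicate 3 or MEF replicate 3. Of 25 genes of clathrin coats and their adaptors, 3 fell and 2 rose in iPS cells, and 4 fell and 3 rose in R1 cells. The adaptor Dab2 fell most (-3.00 ± 0.09 in iPS and -2.41 ± 0.09 in R1 cells), followed by Bin1 (-2.12 ± 0.09 in iPS and -2.28 ± 0.09 in R1 cells) and Snx9 (-1.85 ± 0.10 in iPS and -2.20 ± 0.10 in R1 cells), which bind curved membranes. Sh3gl2, an endophilin, rose (2.24 ± 0.11 in iPS and 2.22 ± 0.11 in R1 cells), and the clathrin heavy chain Cltc averaged 3351 in iPS, 3313 in R1 and 3875 in MEF arrays without being called.

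Beside the 7.58% of all genes called lower in iPS and 7.94% in R1 cells, lipid genes fell as follows. Of 14 genes handling sphingomyelin and cholesterol, the lipids that caveolae concentrate, 2 fell in iPS and 3 in R1 cells and 0 rose. They were the sphingomyelin synthase Sgms2 (-2.07 ± 0.14 in iPS and -1.75 ± 0.14 in R1 cells), the acid sphingomyelinase Smpd1 (-1.60 ± 0.06 in iPS and -1.49 ± 0.06 in R1 cells) and, in R1 cells, Sgms1 (-1.15 ± 0.06). In iPS cells Sgms1 had -0.92 ± 0.06, just short of the minimum, and iPS against R1 gave 0.22 (adjusted p = 0.0518). The medians of the raft, clathrin and lipid lists were -0.43, -0.23 and -0.47 in iPS cells and -0.35, -0.39 and -0.58 in R1 cells. Between iPS and R1 cells 0 genes of these 4 lists were called by limma, with 4 of 15 partners, 3 of 6 raft, 9 of 25 clathrin and 8 of 14 lipid genes at an unadjusted p under 0.05, beside 20.6% of all genes. The clathrin light chain gene Cltb, at -0.98 ± 0.16, was nearest to the limit, and the clathrin list had 1 call without iPS replicate 2, iPS replicate 3 or R1 replicate 2.

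**Figure D4:**
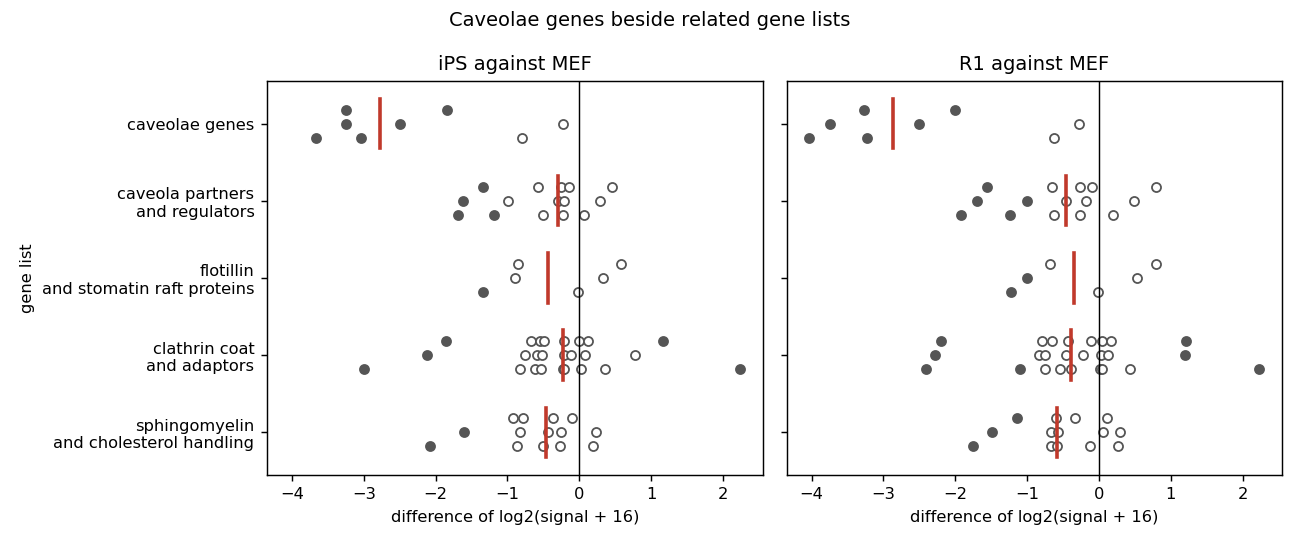
Difference of log2(signal + 16) of each gene in the caveolae set and 4 related lists, for iPS against MEF (left) and R1 against MEF (right). Filled points were called, open points were not, and red lines are list medians. The medians of the caveolae genes are -2.77 for iPS and -2.87 for R1 cells, and those of the other lists lie between -0.58 and -0.23.

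The genes whose profiles lay closest to Cav1 over the 9 arrays were Adam9, a membrane metalloprotease (Pearson r = 0.9994), the AP-1 factor Fosl2 (0.9992), the semaphorin Sema3a (0.9992), Qsox1 (0.9991) and the receptor gene Tnfrsf12a (0.9990). Those closest to Cavin1 were the receptor gene Nrp1 (0.9987), Lrrc41 (0.9986), Vasn (0.9986), Ssr3 (0.9984) and vinculin (Vcl, 0.9983), which anchors actin at adhesions. They were ranked among 14381 genes with a mean signal of 50 or more in at least 1 group. The 9 arrays fall into MEF and pluripotent arrays, so these values follow mainly from that gap, and the size of a change does not enter them. Sema3a, for example, averaged 89.2 in iPS, 67.9 in R1 and 1302 in MEF arrays, while Ssr3 averaged 1653 in iPS, 1679 in R1 and 3814 in MEF arrays. Within the members, r with Cav1 was 0.998 for Ehd2, 0.995 for Cavin1, Cav2 and Cavin3, 0.993 for Cavin2, 0.954 for Pacsin2 and 0.824 for Cav3.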

How the data were processed

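Expression was measured on 9 arrays, 3 each of iPS, R1 and MEF cells, grouped by the titles in the labels. The authors deposited a table of linear intensity with 1 entry for each probe set on each array. GCOS 1.4 is named per the submitters' processing notes without a role. How background was corrected and how probes were summarized and normalized was not given in the sources used here. Array medians differed by little (6.29 to 6.38, log2), so no normalization was added. The number of arrays limits the precision.

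Of 35557 probe sets, 21789 had 1 gene symbol, 1621 several and 12147 were not listed in the annotation table. The probe set with the highest mean stood for each of 19938 genes. Log2(signal + 16) was modelled by group means in limma 3.58.1 (R 4.3.3; lmFit and eBayes, 6 residual degrees of freedom), with Benjamini-Hochberg adjustment over all genes. The script was tested on simulated data. Alternatives changed normalization, dim genes, probe sets, pseudocount, thresholds, weights, intensity trend, block, groups in the fit and single arrays.

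The members, the 4 gene lists and the 6 marker lists (fibroblast, pluripotent, endothelial, adipocyte, skeletal and smooth muscle) were chosen with earlier results of these data known. Named genes are all members, up to 4 called genes per list and comparison with MEF, every called list gene (at most 6) in iPS against R1, 14 defining markers, and the 5 genes most like Cav1 and Cavin1. Flt1, Emcn, Actc1, Myf5, Ckm, Col1a2, Dcn, S100a4, Zfp42, Insr, Cltb, Cltc, the relatives and the neighbours lie outside that rule. All but the relatives and neighbours were picked after their values were seen. Promoters are RefSeq's. List genes without a value in the table are not analysed here.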

Additional observations from a re-analysis of the deposited data

Results flagged for a closer look

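Ehd2 is listed because the test of iPS against R1 cells set its changes from MEF apart in the fit over all arrays. It fell by 3.25 in iPS cells and by 3.75 in R1 cells on the log2(signal + 16) scale, and the test of the difference itself, iPS against R1, gave 0.49 ± 0.10 (limma adjusted p = 0.0157). The signals were 174, 184 and 184 in iPS arrays against 114, 152 and 108 in R1 arrays, higher in 3 of 3 iPS arrays. The size stayed below the minimum difference of 1. The adjusted p was under 0.05 in 17 of 21 alternatives. It was 0.0546 without iPS replicate 2, 0.0505 without iPS replicate 3, 0.0678 without R1 replicate 1 and 0.0567 with the iPS and R1 arrays alone.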

How the results depend on the processing

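Against MEF, 6 members were called under 21 of the 22 alternatives, for iPS and for R1 cells alike, and leaving out any single array kept both counts at 6. Without a minimum difference there were 8, with Cav3 and Pacsin2. Between iPS and R1 cells the count of members was 0 under 21 alternatives, leave-one-out included, and 1 (Ehd2) without a minimum difference. Cavin3, with an adjusted p of 0.0705 between iPS and R1 cells, had 0.0458 with array weights and 0.0488 without iPS replicate 3. Members near 0 between iPS and R1 cells changed sign. Leaving out 1 array gave -0.0054 to 0.0863 for Cav3, -0.12 to 0.17 for Cavin1 and -0.0386 to 0.11 for Cavin2, and array weights gave -0.0296 for Cavin2. None of these had an adjusted p under 0.05, and the cause was not tested. Whether the replicate numbers pair the arrays was not settled, since arrays of unlike number were not compared. Deviations of same-numbered arrays correlated above 0.1 in 4 of 9 pairs (-0.08 to 0.24). For replicate 1 these were iPS and MEF (0.23), R1 and MEF (0.21) and iPS and R1 (0.24). The other was R1 and MEF for replicate 2 (0.20). A fit with the replicate block called 6, 6 and 0 members as well. Over all genes, dropping the minimum difference gave 9572 calls in place of 2524 for iPS against MEF, 9750 in place of 2691 for R1 against MEF, and 1699 in place of 92 between iPS and R1. The same step gave 11, 13 and 2 partners, 5, 5 and 0 raft genes, 19, 19 and 5 clathrin genes, and 12, 10 and 1 lipid genes for the same 3 comparisons. Against a difference of 1, the raft list had 0 calls against MEF and R1 cells had 3 partners and 4 clathrin genes. Quantile normalization or a pseudocount of 32 left 1 raft gene in R1 against MEF, and a pseudocount of 1 gave 1 clathrin gene between iPS and R1. Testing against a difference of 1 left 1643 in iPS against MEF and 10 in iPS against R1. Keeping all probe sets gave 144 in iPS against R1. Signals under 50 limit what can be said of Cav2 and Cavin2 in pluripotent cells. The limit of 50 was a choice, and no detection calls were used. Array medians were 78.2 to 83.3, so background may also be part of the Cav3 signals and of Cav1 in R1 replicates 1 and 3.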

Other observations

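Cav2 and Cav1 neighbour each other on chromosome 6, and the measured protein-coding genes on their outer sides, Tes and Met in the RefSeq order, fell as well. Tes, which encodes the focal adhesion protein testin, had signals of 331, 302 and 326 in iPS arrays, 142, 207 and 154 in R1 arrays and 1168, 1193 and 1136 in MEF arrays. Tes differed from MEF by -1.82 in iPS and by -2.70 in R1 cells, and iPS exceeded R1 by 0.89 ± 0.11 (limma adjusted p = 0.00152), below the minimum of 1. Met, the receptor of hepatocyte growth factor, held 73.5, 62.7 and 77.2 in iPS, 107, 91.1 and 81.6 in R1 and 644, 523 and 549 in MEF arrays. It fell by 2.75 in iPS and by 2.43 in R1 cells, and its iPS arrays lay below its R1 arrays (-0.32 ± 0.11, adjusted p = 0.104).

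Next to Cavin3 lies Smpd1, the acid sphingomyelinase gene, with signals of 135, 137 and 150 in iPS, 145, 162 and 153 in R1 and 440, 478 and 465 in MEF arrays. Next to Pacsin2 lies Arfgap3, which fell (-1.79 ± 0.09 in iPS and -1.73 ± 0.09 in R1 cells) where Pacsin2 was not called. Of the 14 measured outer neighbours of the 8 genes, these 4 fell in each comparison with MEF and 0 rose, where 7.58% and 7.94% of all genes were called lower. The other neighbours, those of Cavin1, Cavin2, Ehd2 and Cav3 among them, were not called. Both neighbours of Cavin2 came close to the limit, in opposite directions. Tmeff2 had -0.99 ± 0.09 in iPS cells (limma adjusted p = 5.51e-06) and Nabp1 0.99 ± 0.16 in R1 cells (limma adjusted p = 0.000390). The neighbours were chosen by position, outside the rule for named genes.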
